A study of Mus musculus with 2 samples.

Results

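The cells described here are 1213 alveolar type 2 (AT2) cells from the CD45-negative fraction of mouse lung adenocarcinoma, called canonical because AT2-class cells with signs of cycling, of a Cldn4-expressing state or of high Lyz1 were set aside. They were selected by UMI counts (unique molecular identifiers, counted transcripts) in a single library. Of 3957 cells in that library, 1677 carried the authors' AT2 label. Left out were 57 cells with at least 3 UMI over Mki67, Top2a, Cdk1 and Cenpf, 173 cells with at least 2 UMI of Cldn4, and the 252 cells in the top 15% by Lyz1 CPM (UMI of a gene per 1000000 UMI of the cell or group). Overlaps between these criteria brought the number left out to 464, so that 72.3% of the class and 30.7% of the library remained. The series holds 15389 cells in all.

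Tumours of C57BL/6 mice were dissected from the lung and dissociated, and beads against CD45, the surface phosphatase of leukocytes, parted the cells into a CD45-negative and a CD45-positive fraction. Each fraction gave 1 droplet library of 3' transcript ends, so there was 1 sample per group, no replicate and no test between groups. Both fractions share the strain, the tissue and the tumour setting. The deposited cell names carry the word LucOS, which no label explains. No source used here gives the tumour driver, the number and age of the mice or the tumour stage, and no deposited class is named for tumour cells.

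AT2 cells are the cuboidal cells of the alveolus that make, store and secrete surfactant, a mix of phospholipids and 4 surfactant proteins that keeps air sacs from collapsing. Surfactant is assembled in lamellar bodies, organelles related to lysosomes, and its secretion and recycling make the cell rich in lipid synthesis, lysosomal enzymes and transporters. AT2 cells also renew the alveolus: they divide and can turn into flat AT1 cells of the gas exchange surface, passing through a keratin-rich transitional state. They display MHC class II, secrete antimicrobial proteins and chemokines, and are a known cell of origin of lung adenocarcinoma. The transcript of IL-33, the nuclear alarmin named in the title of the series, is among those that AT2 cells can make.

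The rule's cuts fell where counts are small. The Lyz1 limit lay at 126.56 CPM, with the nearest cell inside at 126.34 and the nearest outside at 126.71. Of the canonical cells, 1011 had 0 UMI of Lyz1, 172 had 1 and 30 had 2 or more. Of the Lyz1-high cells, 113 had 1 UMI, 81 had 2 or 3 and 58 had 4 or more, so many cells on the far side of the cut differ from canonical ones by a single UMI. For Cldn4, 161 canonical cells had 1 UMI and 53 of the cells left out had exactly 2. For the cycle genes, 86 canonical cells had 1 UMI, 15 had 2, and 10 of the cells left out had exactly 3. A cut in UMI, as for Cldn4 and the cycle genes, also picks deep cells. The median depth was 8043 UMI in canonical cells (from 4664 to 59966), 15356 in Cldn4-positive cells and 11705 in cycling cells. The Lyz1 cut was in CPM, so a cell with 1 Lyz1 UMI passed it only if it was shallow. By this criterion such cells differ from canonical cells with 1 Lyz1 UMI by depth alone. Lyz1-high cells had a median depth of 7216 UMI.

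The label was checked against 5 AT2 markers. Each canonical cell had at least 2 of the 5, and 907 cells (74.8%) had all 5. UMI of the same genes also occurred in other cells of the library: 3.04% of the 1249 cells of the Endothelial class had all 5, at a median depth of 6808 UMI. The levels told the classes apart. Sftpc, the precursor of surfactant protein C, stood at 136014 CPM (95% interval 135808 to 136221) in canonical cells against 3772 CPM (3733 to 3810) in endothelial cells. Sftpb, the precursor of surfactant protein B, stood at 12835 CPM (12772 to 12898) against 369 CPM (357 to 381). Cxcl15, a chemokine-like protein of lung epithelium also called lungkine, stood at 6280 CPM (6236 to 6325) against 179 CPM (171 to 188). Slc34a2, the apical phosphate transporter, stood at 2004 CPM (1979 to 2029) against 51.0 CPM (46.7 to 55.7). Lamp3, a membrane protein of lysosomes and lamellar bodies, stood at 580 CPM (567 to 594) against 16.2 CPM (13.8 to 18.9). All intervals here are exact 95% Poisson intervals of the summed UMI or exact Clopper-Pearson intervals of shares, and they cover counting error only. All 5 markers were far higher in the canonical cells than in endothelial cells, as their label has it.

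**Figure D1:**
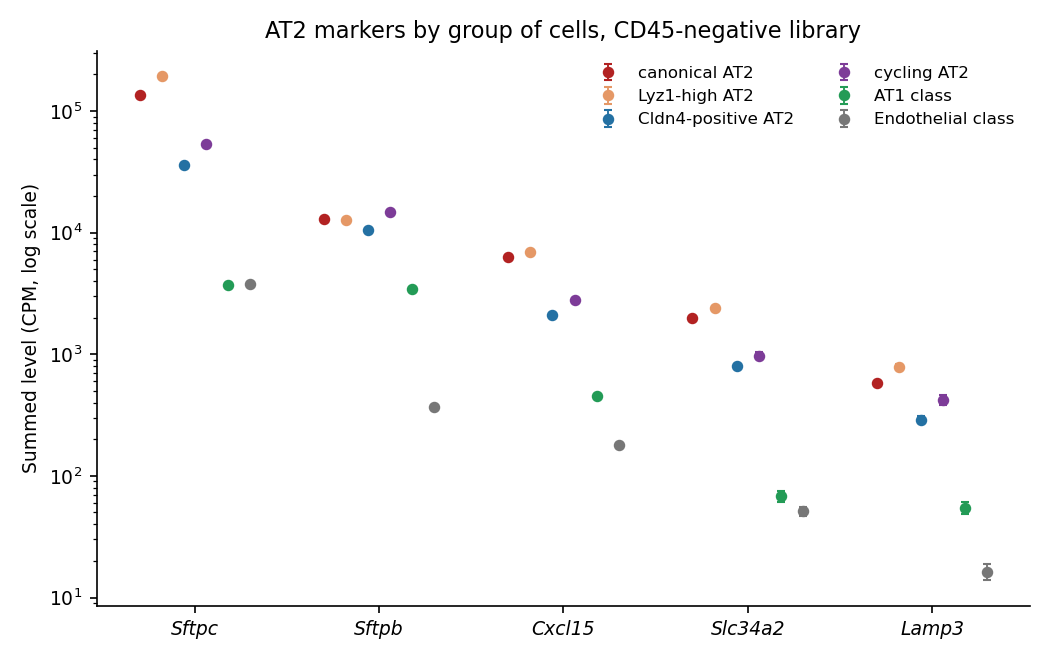
Summed level of the 5 AT2 markers (CPM, log axis) in canonical AT2 cells, the cells set aside, the class deposited as AT1 and the Endothelial class of the CD45-negative library. Points are levels over all cells of a group and bars are 95% Poisson intervals, many smaller than the point. Sftpc lies at 136014 CPM in canonical and 193549 CPM in Lyz1-high cells, and at 3713 CPM in the class deposited as AT1.

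The start regions of the marker genes are shown so that the sequence in front of these transcripts can be read beside their levels. Of the 5 markers, 4 matched the RefSeq promoter table of build GRCm38.p6 by symbol; Sftpc is the other. Each line gives the 150 bases before the annotated start, 5′ to 3′ on the gene's strand. Capitals mark 5 short motifs searched on both strands, which were chosen after a first look at these windows: CTCAAG, a form of the site bound by NKX2-1, the lung lineage factor; TGTTTAC and TGTTTGC, forms of the forkhead site; TTGCGCAA, a palindromic C/EBP site; and TATAAA, the TATA box.

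Sftpb (chr6:72304460-72304609, plus strand): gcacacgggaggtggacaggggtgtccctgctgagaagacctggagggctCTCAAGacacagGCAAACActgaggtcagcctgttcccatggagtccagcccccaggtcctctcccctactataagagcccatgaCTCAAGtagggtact
Slc34a2 (chr5:53049203-53049352, plus strand): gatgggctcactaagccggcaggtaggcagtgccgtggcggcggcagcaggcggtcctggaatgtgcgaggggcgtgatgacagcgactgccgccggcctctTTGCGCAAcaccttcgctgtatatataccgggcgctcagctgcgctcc
Lamp3 (chr16:19706366-19706515, minus strand): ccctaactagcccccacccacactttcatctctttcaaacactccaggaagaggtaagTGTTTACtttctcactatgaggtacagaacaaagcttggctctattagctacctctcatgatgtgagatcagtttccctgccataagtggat
Cxcl15 (chr5:90794384-90794533, plus strand): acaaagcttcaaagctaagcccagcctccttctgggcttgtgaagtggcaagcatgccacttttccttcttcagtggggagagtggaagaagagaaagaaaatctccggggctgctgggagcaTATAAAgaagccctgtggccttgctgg

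The Sftpb window holds CTCAAG starting 100 and 15 bases before the start, and between them a TGTTTGC match on the other strand. Over all 32851 promoters of the table, windows of this length hold CTCAAG in 7.69%, TGTTTAC in 1.80%, TGTTTGC in 2.44%, TTGCGCAA in 0.113% and TATAAA in 7.57%. A match describes letters and is no measure of binding.

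Before other results, the make-up of the canonical cells has to be given, since the cells are not all alike in quality. In 286 of the 1213 cells (23.6%, interval 21.2 to 26.1%), Malat1, an abundant nuclear non-coding RNA, was below 1000 CPM, while only 14 cells lay between 1000 and 3000 CPM and 913 at or above 3000 CPM. These low-Malat1 cells had a median of 0.0981% of UMI from mitochondrial genes and 29.2% from ribosomal protein genes, against 3.08% and 13.7% in the 801 canonical cells with neither this nor the following trait. Another 128 cells (10.6%, interval 8.88 to 12.4%) held endothelial transcripts: 8 endothelial markers summed to at least 1500 CPM, with 19 cells between 1000 and 2000 CPM. Only 2 cells had both traits. Both limits were set after the data were seen. Leukocyte transcripts were scarce, with 39.8 CPM summed over 8 markers and at least 1 such UMI in 19.0% of cells, against 18.3% of endothelial cells. Fibroblast and mural markers summed to 31.3 CPM and basal and neuroendocrine markers to 0.326 CPM. No cell was removed as a doublet.

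**Figure D2:**
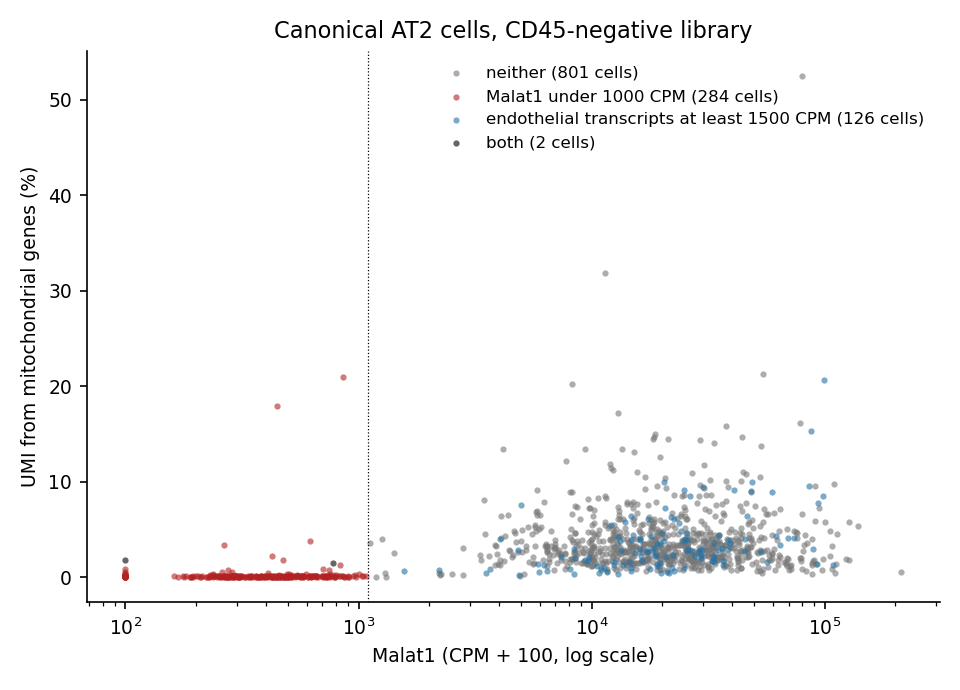
Malat1 level (CPM + 100, log axis) against the share of UMI from mitochondrial genes (%) in each canonical AT2 cell, with low-Malat1 cells in red, cells with endothelial transcripts in blue and the 801 remaining cells in grey. The 286 low-Malat1 cells form a separate cloud, 270 of them under 0.5% mitochondrial UMI, and the endothelial-transcript cells lie within the main cloud.

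The low-Malat1 cells held surfactant transcripts but little long or nuclear RNA. Against the 801 remaining cells, Sftpc was 106944 against 148020 CPM, Sftpa1 (surfactant protein A) 19573 against 26858, and Cxcl15 5717 against 6742. By contrast Slc34a2 was 140 against 2571 CPM, a ratio of 0.0545 (0.0487 to 0.0608), Abca3 (the lipid pump of lamellar bodies) 20.3 against 321, Fasn (fatty acid synthase) 17.7 against 308, and Scd1 (stearoyl-CoA desaturase) 226 against 2468. The nuclear RNAs Neat1 (36.3 against 875 CPM), Meg3 (10.8 against 1219) and Xist (5.62 against 335) were lower by far more than Sftpc. Fth1, ferritin heavy chain, was higher, at 6493 against 3116 CPM. Of 4704 genes with at least 200 UMI over both groups, 84 (1.79%) were at least 2-fold higher and 1755 (37.3%) at least 2-fold lower in low-Malat1 cells. The list of surfactant lipid and sterol synthesis had 14 of 20 genes at least 2-fold lower and none higher, with a median log2 ratio of -2.71 beside -0.42 over all genes compared. Because Malat1 chose these cells, the ratios describe them and are no test.

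The ratio followed transcript length. Across 4543 genes with a length in the mouse annotation (96.6% of those compared), Spearman's rho between length and the log2 ratio was -0.68, given as a description since genes share cells and libraries. In the shortest of 8 bins of genes by length (371 to 1169 bases) the median log2 ratio was 0.54, and in the longest (6030 to 26901 bases) it was -2.63. For the cells with endothelial transcripts the same rho was -0.01. Low-Malat1 cells made up 80.5% of the Erythrocyte class, 21.0% of Lyz1-high, 15.8% of cycling and 0.578% of Cldn4-positive AT2 cells. In the Ciliated class they were 12 of 108 cells (11.1%, interval 5.87 to 18.6%) and in the Immune class 3 of 108 (2.78%). In the Endothelial class and in the class deposited as AT1 there was 1 such cell each, and in the 356 cells of the Fibroblast class 0, which allows up to 1.03%. What these barcodes are was not tested.

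**Figure D3:**
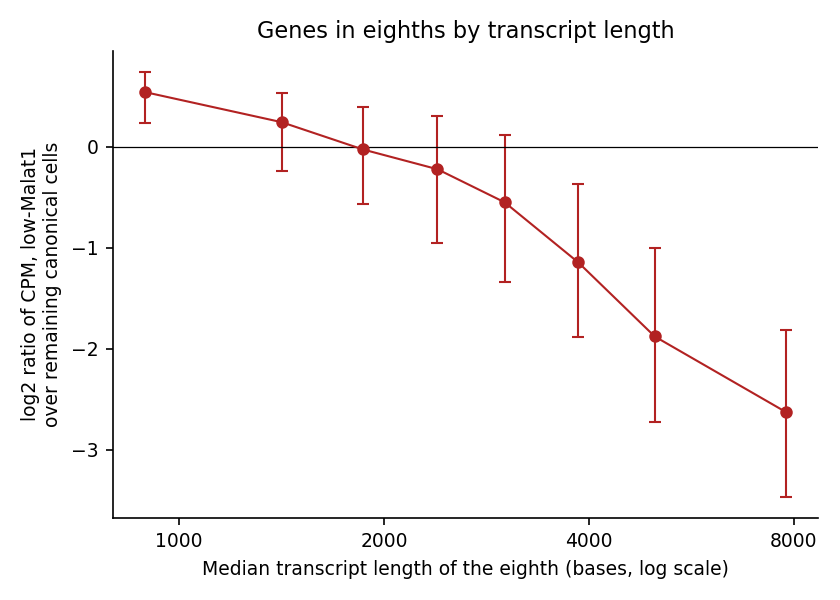
Median log2 ratio of CPM in low-Malat1 over the 801 remaining canonical AT2 cells (vertical axis) in 8 bins of genes by transcript length (bases, log axis), with bars from the lower to the upper quartile of genes. The medians go from 0.54 in the shortest to -2.63 in the longest bin.

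The 128 cells with endothelial transcripts carried transcripts of both cell types. Cldn5, the claudin of endothelial junctions, stood at 1748 CPM there against 68.8 CPM in the 801 remaining cells and 4062 CPM in the Endothelial class. Sftpc stood at 104448 against 148020 CPM. Lyve1, Cd93, Tmem100 and Foxf1, genes of lung endothelium and mesenchyme, were at 252, 386, 806 and 314 CPM against 10.6, 17.5, 35.5 and 13.5. All 8 endothelial markers were at least 2-fold higher, as the choice of cells requires, beside 345 of 4788 genes (7.21%) higher and 121 (2.53%) lower. Xist with at least 2 UMI and a Y-linked UMI occurred together in 11.7% of these cells and in 1.12% of the 801 remaining cells. In all, 327 canonical cells had at least 2 UMI of Xist and no Y-linked UMI. Another 337 had a Y-linked UMI and no Xist UMI, 45 of them low-Malat1 cells, which hold little Xist. Among the 801 remaining cells the numbers were 290 and 257, so the library held cells of both sexes. In the comparisons below with the AT2 cells left out and with the class deposited as AT1, values without both kinds of cells are given. This is done where they move a printed ratio or list count by over 1.5 times.

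Sftpc alone took 13.6% of all UMI of canonical cells. Next in level came Sftpa1 at 24616 CPM, Malat1 at 20179, Tmsb4x (thymosin beta 4, an actin-binding peptide) at 20025, and Lyz2, the lysozyme of macrophages and AT2 cells, at 18589. Cd74, the invariant chain of MHC class II, reached 9289 CPM, B2m (the light chain of MHC class I) 6275, and Sftpd (surfactant protein D, a collectin) 5341. Npc2 (a lysosomal cholesterol carrier) was at 5008 CPM, Chil1 (a chitinase-like secreted protein) at 3385, Lcn2 (lipocalin 2, which binds siderophores) at 3288 and Wfdc2 (a secreted protease-inhibitor-like protein) at 3079. Mitochondrial and ribosomal protein genes were left out of this ranking. These are 3' tag counts, so levels of different genes are shares of UMI and are not per length.

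Other parts of the AT2 programme were lower but measured. Of lamellar body genes, Napsa (the aspartic protease that trims surfactant protein B) was at 1204 CPM, Ctsh (cathepsin H) at 1600, Abca3 at 254 and Lpcat1 (which makes surfactant phosphatidylcholine) at 528. Of lipid genes, Scd1 was at 1951 CPM, Elovl1 (a fatty acid elongase) at 970 and Fasn at 240, while Srebf1, a regulator of fatty acid synthesis, was at 35.4. Among lineage factors, Nkx2-1 was at 281 CPM, Cebpa at 226, Id2 at 222, Etv5 at 73.2 and Foxa2 at 46.5, whereas Sox9 (1.22) and Hmga2 (0.326), which mark embryonic-like or advanced tumour states, were near 0. Airway secretoglobin Scgb1a1 stood at 471 CPM beside 366 CPM in endothelial cells, a cell type that should lack it; how much of it comes from the AT2 cells was not tested.

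Canonical cells varied widely in how much RNA of AT2 markers they held. Per cell, Sftpc ran from 17904 CPM at the 10th percentile through a median of 134317 to 261251 at the 90th, and Slc34a2 from 0 through 1726 to 4666. These percentiles include the low-Malat1 cells, in which Slc34a2 was far lower than in the remaining cells, as given above. Correlations were taken on counts thinned to 4000 UMI per cell, as log2 of the count plus 1. Across the 1213 cells Sftpc correlated with Lyz2 at a Pearson's r of 0.77 and with Cxcl15 at 0.72, Sftpa1 at 0.69 and Sftpb at 0.52. It was negatively correlated with Krt8 (-0.38), Areg (-0.31), Clu (-0.27) and Aqp5 (-0.27). Without both kinds of cells Slc34a2 moved from 0.43 to 0.60 and Aqp5 to -0.41. These cells share 1 library and a fixed sum of UMI in which Sftpc is the main part, so the correlations describe the cells and carry no p.

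By excess variance over counting noise, the genes with the widest spread among the 1105 with a mean of at least 1 UMI per cell were 4 globins (Hbb-bt, Hba-a2, Hba-a1 and Hbb-bs), then Dlk1, Hspb1 and S100a6. The squared coefficient of variation in excess of Poisson was 49.4 for Dlk1, a Notch-family membrane protein of progenitors, whose UMI lay in 120 cells (9.89%), against a median of 0.217 over the 1105 genes. For Ubd and Gbp2, genes induced by interferon, it was 15.1 and 10.2, with UMI in 28.9% and 35.04% of cells. Clu (clusterin, a chaperone of the transitional state) had 9.77 with UMI in 91.3% of cells. A single cell held 21.1% of all Hspb1 UMI and 14.9% of Dlk1 UMI.

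Clustering the canonical cells without any listed gene gave 5 sub-clusters of 378, 289, 256, 155 and 135 cells. Sub-cluster 2 was the low-Malat1 cells (278 of 289) and sub-cluster 5 the endothelial-transcript cells (122 of 135). The other three, which held few cells of either kind, differed in AT2 state. At a finer resolution of 1 they broke up, with 50.3% of sub-cluster 1 and 39.5% of sub-cluster 3 staying in 1 cluster, while 94.2% of sub-cluster 4 did. At a coarser resolution of 0.3 the shares were 99.2%, 63.7% and 94.8%, with sub-cluster 1 inside a cluster of 475 cells. The border of sub-cluster 3 thus moved at both settings. Clusters were cut from the same cells, so the following values are a description. The other canonical cells in the ratios below include sub-clusters 2 and 5. In sub-cluster 2 the median log2 ratio was -1.76 for AT1, -1.98 for lipid and sterol and -0.99 for transitional genes. Over all genes it was -0.47 there. The part of sub-cluster 2 in the list counts of sub-clusters 1, 3 and 4 was not tested.

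Sub-cluster 4 (155 cells, led by Apoe, Cbr2, Cyp2b10, Mme and Mfsd2a) had the highest surfactant and lipid levels. Sftpc reached 243178 CPM there, against 163782 in sub-cluster 1 and 80456 in sub-cluster 3. Scd1 reached 5980 CPM against 2240 and 1399, Fasn 629 against 321 and 156, and Fabp5, a fatty acid carrier, 1236 against 294 and 292. Fdps and Idi1 of sterol synthesis were at 172 and 70.3 CPM against 25.7 and 4.54 in sub-cluster 1. Of 21 lipid and sterol genes compared with the other canonical cells, 11 were at least 2-fold higher and 0 lower, beside 1.61% higher and 6.77% lower over 5331 genes. Their median log2 ratio was 1.06 beside -0.24 over all genes. Il33 was at 392 CPM there against 99.0 in sub-cluster 1 and 120 in sub-cluster 3, and Hc (complement C5) at 856 against 304 and 101. On the other side, 7 of 14 MHC class I and interferon genes were at least 2-fold lower, against the same 6.77% of all genes, at a median of -0.996 beside -0.24, with B2m, which did not reach that limit, at 3365 against 6739 and 6373. Globin transcripts were also highest there, with Hbb-bs at 4142 against 1679 and 1486 CPM, and Scgb1a1 was at 1134 against 427 and 403 CPM; their part in the result was not tested.

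Sub-cluster 3 (256 cells, led by S100a6, Ndnf, Gzme, Spp1 and Ptprn) had the lowest Sftpc and the highest AT1 and transitional levels. Of 15 AT1 genes compared, 13 were at least 2-fold higher than in the other canonical cells, beside 3.79% of all 5331 genes (and 2.01% lower), with a median log2 ratio of 1.77 beside 0.23 over all genes. Ager, the AT1 receptor for advanced glycation end products, was at 3324 CPM against 852 in sub-cluster 1, Aqp5 (a water channel) at 1542 against 583, Hopx at 77.6 against 6.70 and Akap5 at 81.1 against 3.46. Of 19 transitional genes, 13 were at least 2-fold higher and 0 lower, beside the same shares of all genes, with a median log2 ratio of 1.501. Among them were Clu at 4528 against 1283 CPM, Krt8 at 835 against 368, Krt18 at 1252 against 446 and Areg, an EGF-family ligand, at 486 against 114. Cells with such genes thus stay among canonical cells although cells with at least 2 Cldn4 UMI were left out. Tff1 and Gkn2, gastric genes, reached 128 and 117 CPM, but a single canonical cell held 68.6% of all Tff1 UMI and 1 cell held 59.2% of Gkn2 UMI.

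Sub-cluster 1 (378 cells, led by S100a8, Cxcl9 and S100a9, with 65.7% of its S100a8 UMI in 1 cell) lay between them in Sftpc and had the highest Cxcl15 (8794 CPM), Lcn2 (4672), Pigr (the polymeric immunoglobulin receptor, 237) and C3 (216). Its AT1 genes were lower than in the other canonical cells, 9 of 15 at least 2-fold beside 2.72% of all 5331 genes (1.07% were higher), with a median log2 ratio of -1.12 beside -0.08. MHC class II genes were at a median of 0.43 there and at -0.55 in sub-cluster 4, with H2-Aa at 2571 and 1678 CPM.

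**Figure D4:**
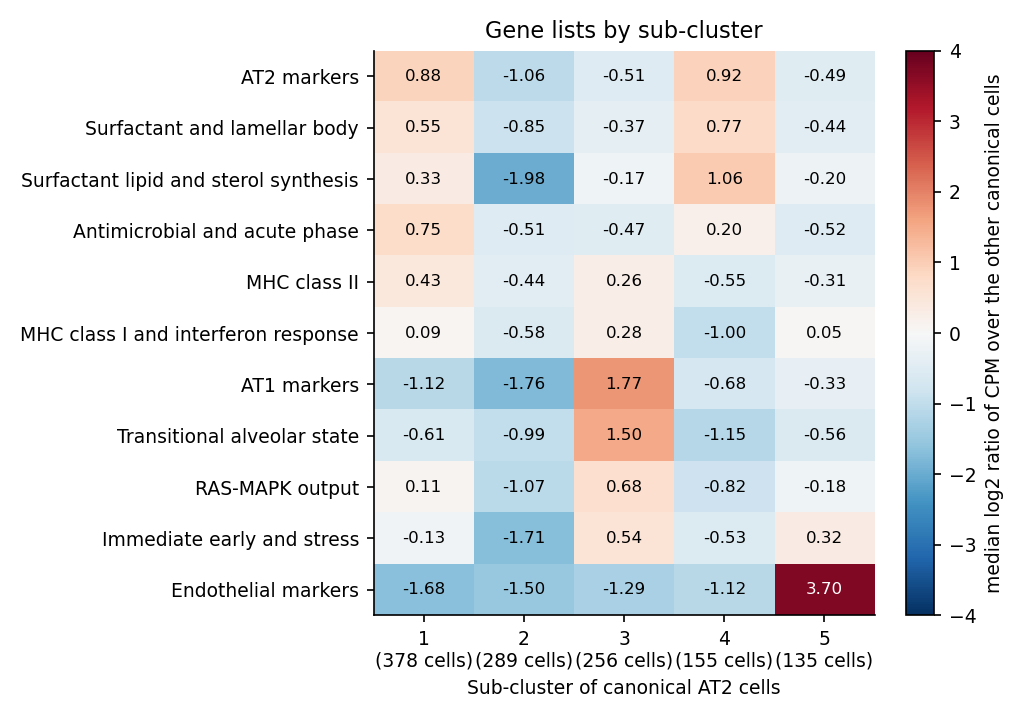
Median log2 ratio of CPM over the other canonical AT2 cells for the genes of 11 lists (rows) in the 5 sub-clusters (columns); red is higher and blue lower. Sub-cluster 3 stands at 1.77 for AT1 markers and 1.501 for transitional genes, sub-cluster 4 at 1.06 for lipid synthesis and sub-cluster 5 at 3.70 for endothelial markers.

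Canonical cells were then set beside the AT2 cells left out. In each comparison, a gene counted as higher or lower if the ratio of summed CPM was at least 2-fold among genes with at least 200 UMI over both groups. Groups come from 1 library and from a rule on the same counts, so each count is a description. The gene lists, here and for the sub-clusters, share members, so their counts are not separate results. Areg and Hbegf are in the transitional list and in that of alarmins, cytokines and chemokines. Krt7 is in the AT1 and transitional lists, Cdkn1a in the transitional and p53 lists, and Lyz2 and Chil1 in the surfactant and antimicrobial lists. The AT2 markers are all in the surfactant list. The background shift differed between comparisons: the median log2 ratio over all genes compared was 0.15 over Lyz1-high, -0.35 over Cldn4-positive and -0.20 over cycling AT2 cells, and -0.29 over the class deposited as AT1.

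Lyz1-high cells (252) had few genes past 2-fold from canonical cells. Of 5742 genes, 65 (1.13%) were at least 2-fold higher and 13 (0.226%) at least 2-fold lower in canonical cells. With ratios centred on their median the counts were 38 and 26. Surfactant and lamellar body genes had 0 of 20 past 2-fold and a median log2 ratio of -0.21, with Sftpc at 136014 against 193549 CPM, Lyz2 at 18589 against 33468 and S100g at 937 against 1568. Sftpb, at 12835 against 12620, and Sftpd, at 5341 against 5558, were nearly level. Of 22 lipid and sterol genes, 2 were at least 2-fold lower, at a median of -0.35. Idi1 (isopentenyl diphosphate isomerase) was at 15.3 against 36.9 CPM (ratio 0.415, 0.318 to 0.544), and Fads1, a fatty acid desaturase outside that list, at 15.5 against 33.8 (0.458, 0.349 to 0.607). Also among the lowest ratios were Cbr2, a carbonyl reductase, at 369 against 872 CPM (0.423, 0.401 to 0.446) and Apoe at 60.6 against 141 (0.429, 0.375 to 0.491). Ccl20, a chemokine for CCR6, was at 47.0 against 242 CPM, but 95.2% of its UMI in Lyz1-high cells lay in 1 cell.

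On the other side, transitional genes had 6 of 19 at least 2-fold higher in canonical than in Lyz1-high cells and 0 lower, at a median log2 ratio of 0.54. AT1 genes had 3 of 15 higher, at 0.59. Clu was at 1723 against 844 CPM, Areg at 184 against 83.3 and Akap5 at 23.4 against 4.05 (ratio 5.79, 3.01 to 12.8). Hopx was at 27.2 against 7.65 CPM, and without both kinds of cells at 27.9 against 3.61, which moved its ratio from 3.55 to 7.72 (3.50 to 21.2). Dlk1 was at 115 against 16.2 CPM (7.09, 5.10 to 10.2), Spp1 (osteopontin) at 55.99 against 8.55 (6.55, 4.16 to 10.9) and Ubd at 256 against 63.9 (3.999, 3.38 to 4.77). Per canonical cell the 75th percentile of Dlk1 and Spp1 was 0 CPM, with maxima of 8675 and 13404 CPM. Their summed levels thus rest on a minority of canonical cells. For Ubd the 75th percentile was 84.5 CPM. AT2-class cells were also binned by Lyz1, without the Cldn4-positive and cycling cells. The 1011 cells with 0 Lyz1 UMI had Lyz2 at 16497 CPM and the 202 cells above 0 but inside the cut had it at 24262. Lyz1-high cells in the lower, middle and upper parts of the Lyz1 range had it at 32300, 36257 and 32276 CPM. Sftpc ran from 128428 through 156588 to 191449, 198936 and 204508 CPM over the same bins. The bin above 0 but inside the cut holds deep cells by construction, with a median of 13036 UMI against 7254 at 0 UMI.

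Cldn4-positive cells (173) had less of the surfactant programme and more of the transitional one. Of 6316 genes, 133 (2.11%) were at least 2-fold higher and 410 (6.49%) at least 2-fold lower in canonical cells, and 285 and 161 after centring. Surfactant and lamellar body genes had 12 of 20 higher and 0 lower at a median log2 ratio of 1.14, with Sftpc at 136014 against 35942 CPM, Lyz2 at 18589 against 6058 and Slc34a2 at 2004 against 796. Sftpb, at 12835 against 10428 CPM, did not reach 2-fold, nor did Ctsh, at 1600 against 2392. Transitional genes had 18 of 21 lower and 0 higher at a median of -2.15: Clu was at 1723 against 7802 CPM, Krt8 at 441 against 1850, Krt18 at 594 against 2801, Areg at 184 against 866 and Sfn (stratifin) at 68.1 against 384. Immediate early and stress genes had 14 of 20 lower at -1.30, with Atf3 at 38.2 against 179 CPM and Fos at 132 against 357. AT1 genes had 9 of 15 lower at -1.09, with Lmo7 at 161 against 614 CPM and Cldn18 at 876 against 2193.

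Among the 10 highest ratios over Cldn4-positive cells were those of Acoxl, an acyl-CoA oxidase-like gene, at 46.9 against 4.90 CPM (9.56, 5.92 to 16.5), Cox6a2 (a cytochrome oxidase subunit) at 295 against 42.4, Hc at 244 against 43.3 and Apoc1 at 194 against 39.2. Among the 10 lowest were AA467197 at 7.08 against 132 CPM (0.0537, 0.0422 to 0.0677), Procr, the protein C receptor, at 11.7 against 134 and Fn1 (fibronectin) at 9.44 against 74.4. MHC class II genes had 0 of 8 past 2-fold at a median of -0.16, with Cd74 at 9289 against 10343 CPM. Without the low-Malat1 and endothelial-transcript cells, Cldn4-positive cells still had 17 of 21 transitional genes higher, and the endothelial list went from 2 of 8 genes higher in canonical cells to 0 of 6. Against the class deposited as AT1 it went from 5 of 8 to 0 of 6.

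Cycling cells (57) also had lower levels of most surfactant genes and higher levels of transitional genes than canonical cells. This comparison and the one before share the canonical cells, and 11 of the cycling cells are also Cldn4-positive cells. Another overlap is with the Lyz1-high cells, at 6 cells. Of 5620 genes, 169 (3.01%) were at least 2-fold higher and 430 (7.65%) at least 2-fold lower in canonical cells, and 268 and 269 after centring. The lowest ratios were mitotic genes, as the rule requires, such as Ube2c at 5.37 against 540 CPM and Birc5 at 4.88 against 351. Without both kinds of cells Birc5 was at 2.63 against 317, which moved its ratio from 0.0139 to 0.00827. Surfactant and lamellar body genes had 10 of 20 higher and 0 lower at a median log2 ratio of 0.94, with Sftpc at 136014 against 53697 CPM, Lyz2 at 18589 against 4693 and Napsa at 1204 against 462, while Sftpb was at 12835 against 14708. Transitional genes had 12 of 19 lower and 0 higher at -1.21, with Krt7 at 278 against 1288 CPM, Krt18 at 594 against 2224 and Clu at 1723 against 4501. AT1 genes had 1 of 15 in each direction. MHC class II genes had 0 of 8 past 2-fold, at a median of 0.59, and Cd74 was at 9289 against 5807 CPM. Acoxl was at 46.9 against 6.56 CPM (7.14, 3.45 to 17.9), and without both kinds of cells at 53.3 against 2.28 (23.3, 6.43 to 193). Cbr2 was at 369 against 51.6 (7.15, 5.49 to 9.51).

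Globins were among the highest ratios over cycling cells, with Hba-a1 at 1133 against 124 CPM (9.16, 7.71 to 11.0). A UMI of Hba-a1 was present in 936 of 1213 canonical and 42 of 57 cycling cells, and 1 canonical cell held 15.1% of its UMI. Per canonical cell its median was 159 CPM and its 90th percentile 412 CPM, with a maximum of 143503 CPM. The summed level of 1133 CPM thus lies above the 90th percentile and rests on few canonical cells. The level in canonical cells (1133 CPM) was close to that in endothelial cells (1151 CPM). With 57 cells in the comparator, a ratio can rest on few cells on that side too.

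The class deposited as AT1 (285 cells) had the most genes past 2-fold of the 4 comparators in the CD45-negative library, and its AT1 markers were mixed. Of 15 AT1 genes compared, 2 (Ager and Hopx) were at least 2-fold higher in canonical cells and 4 (Gprc5a, Ahnak, Krt7 and Lmo7) lower, at a median log2 ratio of 0.03. Ager was lower there (302 CPM) than in canonical AT2 cells (1428 CPM), Rtkn2 (under the minimum of 200 UMI) was at 0.187 against 9.77 and Hopx at 7.09 against 27.2, whereas Krt7 was at 2018 against 278 CPM and Lmo7 at 739 against 161. It is therefore called here by its deposited label only. Of 6727 genes, 641 (9.53%) were at least 2-fold higher and 1011 (15%) at least 2-fold lower in canonical cells, and 895 and 582 after centring. Surfactant and lamellar body genes had 19 of 20 higher at a median log2 ratio of 3.09. Among these 19 were all 5 AT2 markers, with Sftpc at a ratio of 36.6 (36.1 to 37.1). In that class Sftpc (3713 CPM) was no higher than in endothelial cells (3772 CPM), whereas Sftpb (3465 against 369 CPM) and Sftpa1 (2584 against 662 CPM) were. MHC class II genes had 7 of 8 higher in canonical cells at 1.83 and antimicrobial and acute phase genes 8 of 9 at 3.39, with Lcn2 at 3288 against 98.1 CPM.

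Transitional genes had 19 of 21 lower in canonical cells than in the class deposited as AT1, at a median log2 ratio of -2.46, and alarmins, cytokines and chemokines 7 of 13 lower and 2 higher (Il33 and Ccl20) at -1.08. Clu was at 1723 against 8933 CPM, Lgals3 (galectin 3) at 228 against 1857 and Krt18 at 594 against 3862. Tslp, an epithelial cytokine, was at 1.95 against 112 CPM, but 79.8% of its UMI lay in 1 cell of the other class. Lif was at 1.63 against 101 CPM (0.0162, 0.00979 to 0.0252), Fosl1 (a RAS-responsive AP-1 factor) at 0.814 against 43.7 and Aldh1a3 at 0.163 against 74.8. Hmga2 was at 0.326 against 27.2 CPM and Sox9 at 1.22 against 26.5. Of RAS-MAPK output genes, 6 of 12 were lower in canonical cells, with Phlda1 at 329 against 1314 CPM and Dusp6 at 69.7 against 222, and Etv5 went the other way at 73.2 against 16.0. Of p53 and its targets, 4 of 9 were lower, beside 15% of all genes compared, with Bax at 103 against 216 CPM and Cdkn1a at 104 against 210. The median log2 ratio of that list was -0.42, close to the -0.29 over all genes. Without both kinds of cells it was -0.84 over 7 genes, beside -0.27. Without both kinds of cells Cdkn1a was at 65.4 against 208, which moved its ratio from 0.496 to 0.315 (0.284 to 0.349).

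**Figure D5:**
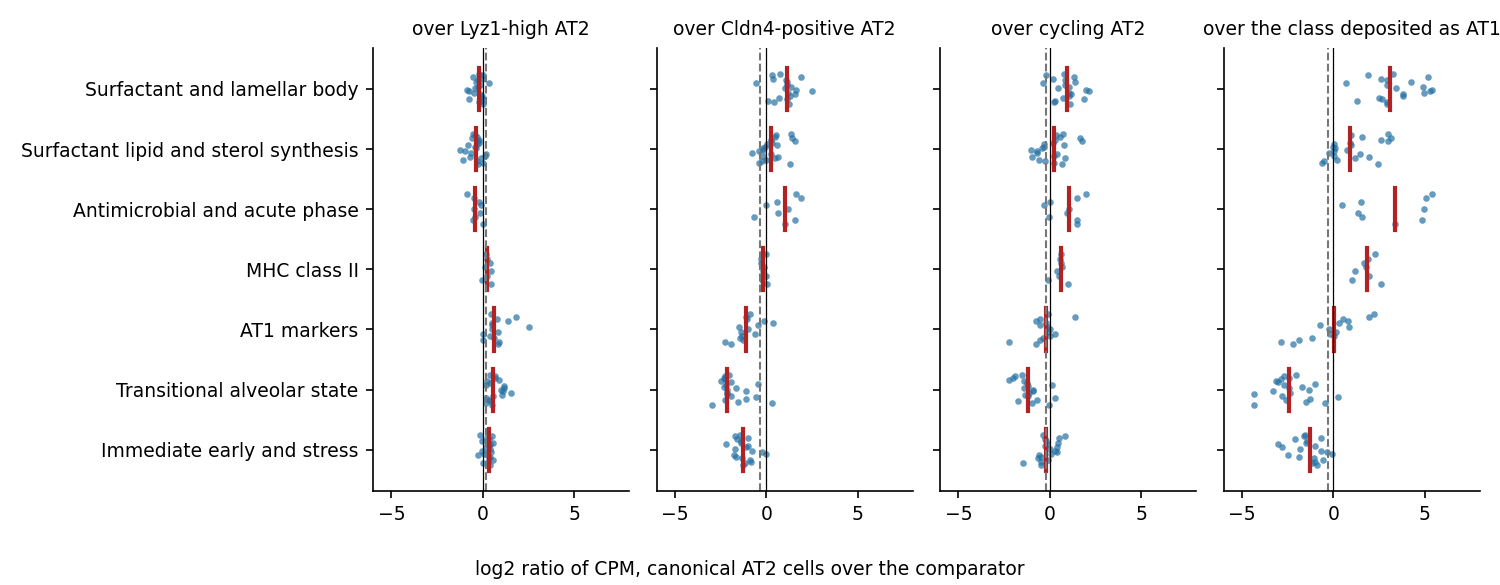
log2 ratio of CPM in canonical AT2 cells over each comparator (4 panels) for the genes of 7 lists; each point is a gene with at least 200 UMI over both groups, red bars are list medians and the dashed line is the median of all genes compared. Surfactant genes lie at medians of -0.21, 1.14, 0.94 and 3.09 from left to right, and transitional genes at 0.54, -2.15, -1.21 and -2.46.

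Il33 was at 152 CPM (145 to 159) in canonical cells, with a UMI in 47.6% of them (44.8 to 50.5%), against 10.1 CPM and 6.41% in endothelial cells as background. It stood at 221 CPM in Lyz1-high, 133 in cycling and 68.6 in Cldn4-positive cells and at 57.8 in the class deposited as AT1, while the Fibroblast class had 161. Among canonical cells it was 177 CPM in low-Malat1 cells and 147 in the 801 remaining cells. Of other signals, Cxcl16 was at 104 CPM against 262 in Cldn4-positive cells and 392 in the class deposited as AT1, Hbegf at 72.3 against 232 and 384, and Csf2 at 5.29 against 1.73 and 12.7. Retnla, a cysteine-rich secreted protein, was at 2116 CPM in canonical cells against 720 in Cldn4-positive and 755 in cycling cells.

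The CD45-positive library, which should hold few epithelial cells, carried 1324 cells of the AT2 class, 1191 of which met the same rule with the Lyz1 limit taken from the other library. Both libraries shared 57 cell barcodes; 15 canonical cells had a barcode that also occurs in the CD45-positive library, 3 of them as AT2 there. The cells were shallower, with a median of 4087 UMI against 8043, and 94.5% of them had a leukocyte UMI against 19.0% in the CD45-negative library. The 8 leukocyte markers summed to 1719 against 39.8 CPM, and their part in the other differences was not tested. Only 66 of the 1191 cells had no leukocyte UMI. Low-Malat1 cells made up 4.95% of the 1191 cells, against 23.6% in the CD45-negative library. Among the 66 cells with no leukocyte UMI they made up 22.7% (13.3 to 34.7%). The cause of this difference was not tested.

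Of 6788 genes, 54 (0.796%) were at least 2-fold higher and 202 (2.98%) at least 2-fold lower in canonical cells of the CD45-negative than of the CD45-positive library. None of the 20 surfactant and lamellar body genes and none of the 8 MHC class II genes passed 2-fold, at median log2 ratios of 0.41 and 0.04 beside 0.03 over all genes. Sftpc was at 136014 against 107932 CPM, Slc34a2 at 2004 against 1812 and Il33 at 152 against 85.01. In the 66 CD45-positive cells with no leukocyte UMI, with 24 UMI of Il33 in all, Sftpc was at 139580, Slc34a2 at 2499 and Il33 at 87.9 CPM, and the median log2 ratio of the 5 AT2 markers was 0.02 against 0.40 over all 1191 cells. All 8 leukocyte markers were lower, and among the lowest ratios were Jchain (12.1 against 1953 CPM), of plasma cells, Cd3g (0.895 against 115) and Cd79a (0.570 against 69.5). Cxcl2, a neutrophil chemokine, was at 24.98 against 295 CPM. Sort, depth and library cannot be told apart in this comparison.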

How the data were processed

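Both libraries were made with a droplet 3' kit and sequenced at 98 base pairs, and Cell Ranger 1.1.0 with genome build mm10 turned reads into UMI counts, per the series design text and the submitters' processing notes. The authors deposited raw UMI counts per gene and cell (17790 genes) and a table with a class per cell; the sources used here do not say how classes were made or whether doublets were removed. All deposited cells were kept and no doublet caller was run here. Totals matched the cell table in all 15389 cells.

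The members and gene lists were chosen with earlier results of these data known. Counts were summed over the cells of a group and given as CPM. Ratios had exact conditional-binomial 95% intervals, and a change counted at 2-fold among genes with at least 200 UMI over both groups, leaving out mitochondrial and ribosomal protein genes and the 6 genes of the rule. A single library per group allowed no p-value, and cells were not used as replicates. The 10 equal groups by Lyz1 CPM planned at first could not be formed, since 1190 of 1677 AT2 cells had 0 UMI. Bins without the Cldn4-positive and cycling cells replaced them. Named genes were the 10 highest and 10 lowest ratios per comparator, the 6 most extreme genes of each list (minimum 50 UMI), the 5 AT2 markers, Il33, the 15 widest in spread and the 20 highest in level; the text gives a selection of these, and further genes of the lists and those named in the make-up, sub-cluster and CD45-positive paragraphs were picked after their values were seen. Sub-clusters came from the Leiden method at resolution 0.5 without listed genes, on 15 neighbours in 20 components of 2000 variable genes (igraph 0.11.9, scanpy 1.11.5), and its ratios had 5 CPM added. Arithmetic ran in pandas 2.3.3, scipy 1.17.1 and numpy 2.4.6 under Python 3.11.15, and plots in matplotlib 3.10.9. The computation was tested on simulated Poisson counts with no spread between cells. True ratios of 2 and 4 were estimated at 1.97 and 3.91 (medians of 50 genes each) for a large comparator. For a small comparator they were estimated at 1.94 and 4.00. Of genes with a true ratio of 2, 42% passed 2-fold with either comparator. The simulation does not cover the excess spread between cells given above.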

Additional observations from a re-analysis of the deposited data

How the results depend on the processing

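The counts of genes past 2-fold depended on the settings. Higher and lower counts are given in that order. Weighing each cell alike gave 6 lower over Lyz1-high and 633 lower over Cldn4-positive cells. Centring ratios on their median gave 38 and 26 over Lyz1-high, 285 and 161 over Cldn4-positive and 268 and 269 over cycling cells, and 582 lower over the class deposited as AT1. Thinning each cell to 4000 UMI gave 142 higher over Lyz1-high, 218 and 795 over Cldn4-positive and 392 higher over cycling cells. A minimum of 50 UMI, with 9682 to 10251 genes tested in place of 5620 to 6727, gave 328 and 68 (3.37 and 0.6995%), 292 and 873 (2.91 and 8.70%), 522 and 1075 (5.39 and 11.1%), and 1152 and 1576 (11.2 and 15.4%) for the 4 comparators. Cells without other cell types' defining markers left 2399 to 2874 genes to test and gave 31 and 2 over Lyz1-high (1.15 and 0.0743%), 228 lower over cycling cells (9.50%), and 358 and 473 over the class deposited as AT1 (12.5 and 16.5%), so these smaller counts come with fewer genes tested. Leaving out the top 25% by Lyz1 gave 19 and 5 over Lyz1-high cells, and the top 5% gave 209 and 41. Criteria per 10000 UMI gave 112 higher over Lyz1-high and 202 higher over Cldn4-positive cells. The number of canonical cells was 1376 and 1064 with the top 5% and 25% by Lyz1 left out, and 1052 and 1264 with Cldn4 cuts of 1 and 3 UMI. Of 94 recomputed counts, 62 were within 1.5 times the main count, among them all counts without low-Malat1 cells, without endothelial-transcript cells and without both, which were chosen after seeing the data. Of 35 recomputed marker levels, 5 stayed inside their counting interval. The cause of the other shifts was not tested.

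No paired analysis was possible because each fraction has 1 library. Depth limits genes of a few UMI per group, and the 57 cycling cells limit their comparison. Free RNA and doublets were not modelled, and the low-Malat1 barcodes are part of every sum.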
